A study of Mus musculus with 57 samples.

Results

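The genes described here are the chemokine ligands, taken as every gene of the deposited mouse liver table whose symbol starts with Ccl, Cxcl, Cx3cl or Xcl followed by a number. The rule found 39 genes among the 54307 of the table. Of these, 36 were above 0 in at least 1 of the 57 mice, and Ccl26, Cxcl15 and the pseudogene Ccl19-ps3 were at 0 in every mouse. In 31 genes the mean of at least 1 group reached 1 CPM (the estimated counts scaled to a common library total), and in 14 the means of all 10 groups did. The other 5 genes above 0, Ccl1, Ccl20, Ccl21b, Ccl28 and Cxcl17, stayed under 1 CPM in every group mean.

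Livers came from wild-type male C57BL/6JJcl mice, which were 6 weeks old, acclimatised for 1 week and fasted for 12 h, and were killed 24 h after dosing. By gavage, 4 mice received alpha-naphthyl isothiocyanate (ANIT), a bile duct toxicant, 6 received acetaminophen (APAP), a drug that harms hepatocytes in overdose, 7 received 4,4'-methylene dianiline (MDA), another bile duct toxicant, and 5 received thioacetamide (TAA), a hepatocyte toxicant. The intraperitoneal compounds were CCl4 (7 mice), a solvent made toxic by hepatocyte metabolism, and galactosamine (GAL, 4 mice), an amino sugar that blocks hepatocyte RNA synthesis. Concanavalin A (ConA, 7 mice), a plant lectin that activates T cells, was given intravenously. Controls were 13 mice given 0.5% methylcellulose by gavage (Ctrl), 2 given 0.9% saline intraperitoneally (CIP) and 2 given 0.9% saline intravenously (CIV). Each compound was set against the vehicle of its route and, separately, against all 17 vehicle mice. Corn oil is listed among the vehicles without its compound, and no control mouse received it, so that for such a compound the effects of drug and oil cannot be told apart. The amount of each compound given is not stated in the sources used here.

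Chemokines are small proteins that guide leukocytes along gradients through G protein-coupled receptors. Inflammatory ligands are made on demand by macrophages, endothelium, stellate cells and hepatocytes of injured liver. Homeostatic ligands are made without injury and place lymphocytes and stem cells. CXC ligands with an ELR motif draw neutrophils through Cxcr2, interferon-induced CXC ligands draw activated T and NK cells through Cxcr3, and the Ccl2 group draws monocytes through Ccr2.

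Library totals lay between 13826343 and 35075809 estimated counts, with a median of 21532116. Hepatocyte markers (Alb, Apoa1, Ttr, Serpina1c, Cyp3a11 and Hnf4a) were present in all groups, with summed levels from 19330.0 CPM in CCl4 to 128200.0 CPM in MDA. One APAP liver, mouse 1, stood apart from the other 5 in most inflammatory ligands, and the gavage controls numbered 1 to 4 lay below the other 9 in Ccl2, Ccl6, Ccl19 and Cxcl13. In whole liver, fewer cells of a type and less RNA per cell cannot be told apart. The labels do not say whether mice shared a cage or a day, so p-values measure the spread between these mice.

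RefSeq promoter windows of build GRCm38.p6 were at hand for 26 of the 39 genes. The 250 bases before the start are printed for 3 ELR ligands and 2 Cxcr3 ligands, since the results below turn on these genes. Capitals mark matches, on either strand, to the NF-kB consensus, to GAAANNGAAA (the interferon-stimulated response element), to TTCNNNGAA (the gamma-activated site) and to TGANTCA (the AP-1 site).
Cxcl1, chr5:90890995-90891244, plus strand: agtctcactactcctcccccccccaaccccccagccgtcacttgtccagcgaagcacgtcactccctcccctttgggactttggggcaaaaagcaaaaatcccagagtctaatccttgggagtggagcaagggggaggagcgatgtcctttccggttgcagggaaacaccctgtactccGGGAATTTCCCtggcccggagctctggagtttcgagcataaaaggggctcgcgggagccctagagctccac
Cxcl2, chr5:90903649-90903898, plus strand: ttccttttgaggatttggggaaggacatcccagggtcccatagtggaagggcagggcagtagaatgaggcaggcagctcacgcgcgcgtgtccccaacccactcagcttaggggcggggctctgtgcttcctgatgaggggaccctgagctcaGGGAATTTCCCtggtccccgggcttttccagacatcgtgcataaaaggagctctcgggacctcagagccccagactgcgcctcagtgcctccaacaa
Cxcl3, chr5:90785851-90786100, plus strand: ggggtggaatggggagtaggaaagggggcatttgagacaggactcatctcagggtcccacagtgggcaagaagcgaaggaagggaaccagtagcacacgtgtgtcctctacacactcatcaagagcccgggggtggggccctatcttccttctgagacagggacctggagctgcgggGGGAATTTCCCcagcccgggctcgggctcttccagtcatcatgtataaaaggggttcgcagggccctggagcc
Cxcl10, chr5:92348890-92349139, minus strand: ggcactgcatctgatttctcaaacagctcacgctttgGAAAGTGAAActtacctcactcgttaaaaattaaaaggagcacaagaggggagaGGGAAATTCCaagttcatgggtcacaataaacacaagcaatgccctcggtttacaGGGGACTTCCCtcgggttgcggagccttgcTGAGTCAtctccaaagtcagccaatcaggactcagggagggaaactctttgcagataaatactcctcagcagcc
Cxcl9, chr5:92328080-92328329, minus strand: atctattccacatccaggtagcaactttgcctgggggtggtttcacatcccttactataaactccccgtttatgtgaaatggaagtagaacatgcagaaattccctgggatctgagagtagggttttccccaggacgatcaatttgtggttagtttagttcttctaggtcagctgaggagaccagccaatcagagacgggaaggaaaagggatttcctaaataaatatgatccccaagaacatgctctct
Cxcl1, Cxcl2 and Cxcl3 each held 1 stretch where matches to the NF-kB consensus on the 2 strands overlap, and no match to the other motifs. The stretch began 71 bases before the start in Cxcl1, 97 in Cxcl2 and 73 in Cxcl3. The Cxcl3 window did not match the start of a GENCODE transcript, so its distance is the less certain. The Cxcl10 window held 2 NF-kB sites, 1 interferon-stimulated response element and 1 AP-1 site. None of the 4 motifs was found in these bases of Cxcl9. Over the 32851 windows of the table, 7.25% held the NF-kB consensus, 2.98% the interferon-stimulated response element, 7.02% the gamma-activated site and 6.75% the AP-1 site. Among the 26 chemokine genes with a window the counts were 7, 3, 2 and 3. A match describes letters and is no measure of binding.

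Against the route vehicle, ConA moved the most chemokine ligands. Of 31 tested genes 21 rose and 2 fell at an adjusted p under 0.05 (edgeR), where 16.8% of all genes tested were called higher and 17.3% lower. APAP raised 16 and lowered 3 of 25 genes, beside 17.3% and 14.6% of all genes. TAA raised 11 and lowered 5 of 24, beside 26.4% and 24.0%. MDA raised 7 and lowered 5 of 23, beside 17.4% and 16.4%. GAL raised 6 and lowered 5 of 27, beside 12.8% and 15.7%. ANIT raised 3 and lowered 6 of 24, beside 14.0% and 14.2%. The smallest count was that of CCl4, which raised 3 and lowered 2 of 28, beside 18.0% and 15.6%. The median log2 fold change of the genes tested was 4.30 for ConA (4.18 with genes at 0 in both controls set at their bound), 1.90 for APAP, 0.68 for TAA, 0.22 for GAL, -0.06 for CCl4, -0.19 for MDA and -0.27 for ANIT. Without APAP mouse 1 the APAP median was 0.44. Over all genes tested these medians lay between -0.01 and 0.10. Some called genes passed the filter on low values, 10 counts at the median library total, through 1 group alone. Through the treated mice these were 8 genes with ConA (Ccl11, Ccl12, Ccl17, Ccl19-ps1, Cx3cl1, Cxcl2, Cxcl3 and Cxcl5) and Cxcl2 with GAL. Through the controls they were Ccl21a with ANIT and MDA, Cxcl11 with ANIT and TAA, and Xcl1 with TAA. Such genes had to differ, so no p is given for them other than where an alternative ended the call, and the counts and medians above are descriptions. The pseudogene Ccl19-ps1 lost its ConA call against all 17 vehicle mice (adjusted p = 0.139) and with limma (adjusted p = 0.182). That call was also lost without the filter, with the number range as a covariate, without either CIV mouse and without some of the ConA mice.

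**Figure D1:**
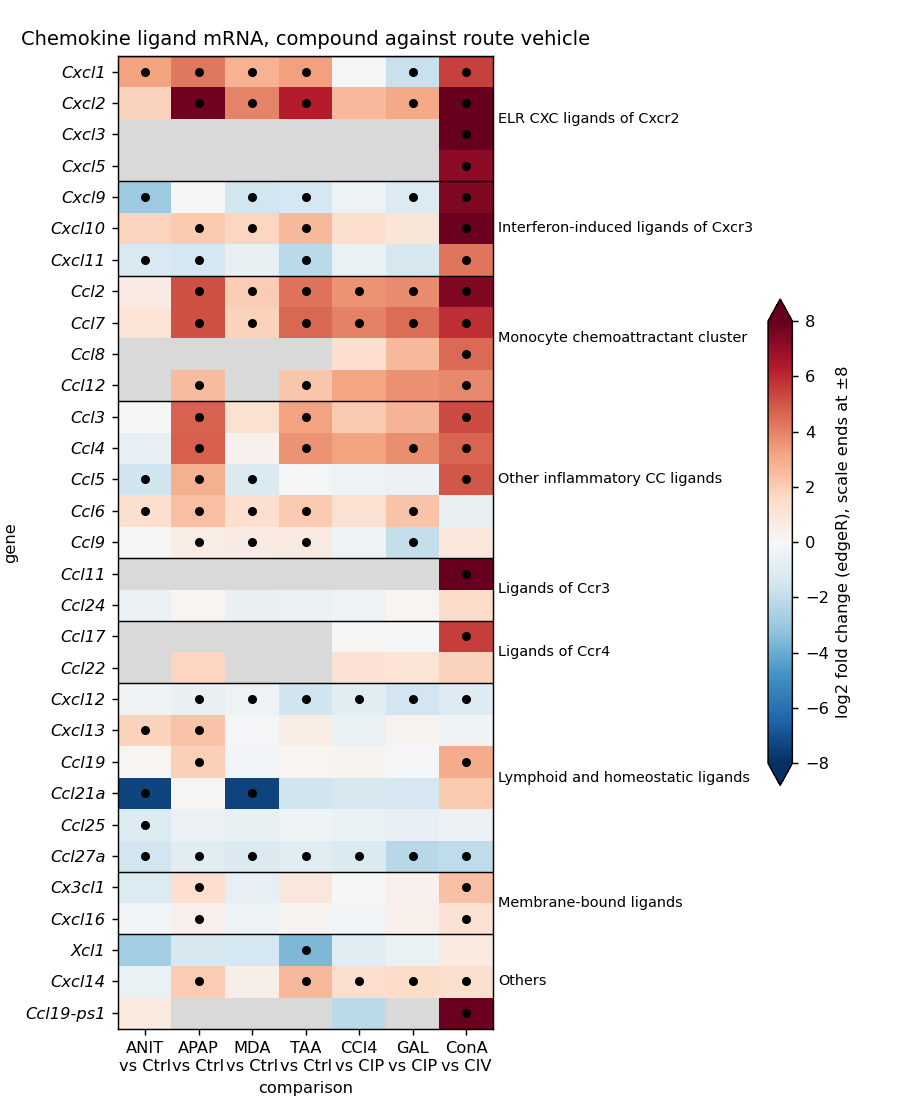
Log2 fold change of each chemokine ligand tested in at least 1 comparison (rows, grouped by role) in the 7 comparisons with the route vehicle (columns), where red is higher, blue is lower, grey was not tested and a black dot marks an adjusted p under 0.05. The ConA column holds 21 called rises, that of the pseudogene Ccl19-ps1 among them, and 2 called falls. Ccl27a is called lower in all 7 columns.

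Scaling by library totals in place of TMM, a scaling that assumes most genes unchanged, moved the median of all genes by -0.22 for ANIT, 0.15 for APAP, 0.43 for CCl4, 0.76 for GAL and -0.59 for ConA (log2). No ligand called against its route vehicle changed sign under it. The calls became 12 higher and 2 lower for GAL (beside 35.6% and 5.44% of all genes), 6 and 0 for CCl4 (beside 29.7% and 7.16%), and 2 and 7 for ANIT (beside 5.84% and 18.8%). Changes are given relative to the TMM scale.

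Cxcl1 and Cxcl2, the ELR ligands that bring in neutrophils, rose with most compounds. In the 13 Ctrl mice Cxcl1 ranged from 0.439 to 33.2 CPM with a median of 7.61, and the CIP mice had 15.4 and 17.8 and the CIV mice 9.80 and 13.7 CPM. The 7 ConA livers lay between 256 and 737 CPM with a median of 478. All lay above every vehicle mouse, with a log2 fold change of 5.48 ± 0.51 (± SE; adjusted p = 6.77e-05). TAA livers had 124, 27.6, 69.0, 168 and 92.0 CPM, and ANIT livers 31.1, 112, 90.4 and 149.7 CPM. In each of these groups 1 mouse fell inside the Ctrl range. The log2 fold changes were 3.25 ± 0.58 with TAA (adjusted p = 0.000108) and 3.19 ± 0.61 with ANIT (adjusted p = 0.000887). MDA livers ranged from 15.5 to 114 CPM (median 84.1), in part inside the Ctrl range (2.78 ± 0.54, adjusted p = 0.000479). GAL livers went the other way, with 8.00, 3.31, 4.49 and 3.96 CPM, all under both CIP mice (-1.75 ± 0.35, adjusted p = 0.0146). That fall was not called against all 17 vehicle mice (-1.23, adjusted p = 0.123), with library totals (adjusted p = 0.094), without CIP mouse 7 (adjusted p = 0.0701) or without CIP mouse 8 (adjusted p = 0.0871). CCl4 livers, with 6.90 to 23.4 CPM of Cxcl1 and a median of 13.2, gave no call.

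Cxcl2 was low in vehicle livers, with a Ctrl median of 0.261 CPM (range 0 to 4.09), 0.388 and 0.0444 CPM in CIP and 0.0844 and 0.530 CPM in CIV. With ConA it ranged from 271 to 717 CPM (median 509), with no overlap (log2 fold change 10.72 ± 0.81). TAA livers had 32.3, 10.5, 28.9, 202 and 22.4 CPM, again above every vehicle mouse (6.31 ± 0.79, adjusted p = 1.99e-06). MDA livers spread from 0.392 to 31.2 CPM (median 13.8), and 2 of the 7 lay inside the Ctrl range (3.99 ± 0.77, adjusted p = 0.000412). GAL livers held a narrow band of 1.81, 2.29, 2.50 and 2.08 CPM above both CIP mice (3.02 ± 0.59), which was not called against all 17 vehicle mice (1.76, adjusted p = 0.0721). ANIT livers divided, with 2.81, 0.0237, 7.93 and 0.165 CPM, and were not called. One control moved several of these values. Without Ctrl mouse 18 the fold changes were 7.02 ± 0.72 with TAA, 4.68 ± 0.73 with MDA and 8.43 ± 1.35 with APAP. Without CIV mouse 7 or 8 that of ConA was 10.01 ± 0.84 or 12.25 ± 0.94, and without CIP mouse 7 or 8 that of GAL was 4.76 ± 0.62 or 2.43 ± 0.48.

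Of the other ELR ligands, Cxcl3 was at 0 and 0 in the CIV mice and ran from 5.91 to 14.2 CPM with ConA (median 8.38). Set against a floor of 3 estimated counts per control library, its mean was at least 95.8-fold higher. Outside ConA the highest Cxcl3 values were 36.3 CPM in APAP mouse 1 and 17.1 CPM in TAA mouse 7, and the next was 1.10 CPM. Cxcl5, made by epithelium, went from 0 and 0.117 CPM in CIV to between 7.12 and 16.7 CPM with ConA. Neutrophil markers (S100a8, S100a9, Ly6g, Retnlg, Csf3r, Camp) were called higher in 5 of 6 tested with ConA, 5 of 5 with TAA, 3 of 4 with APAP, 2 of 4 with MDA and 1 of 4 with ANIT. They were also called higher in 4 of 4 with GAL, where Cxcl1 fell, and in 2 of 4 with CCl4, where neither Cxcl1 nor Cxcl2 was called. Camp and Ly6g with ConA and Ly6g with TAA passed the filter on low values through the treated livers alone and so had to differ, and the number tested varies with the compound for this reason. Against all 17 vehicle mice the markers called higher were 1 of 4 with GAL, 3 of 4 with CCl4, 5 of 5 with TAA, 4 of 4 with APAP, 3 of 4 with MDA and 1 of 4 with ANIT, and with ConA 4 of 5, with 1 lower. The GAL counts thus rest on the 2 CIP mice, as does the Cxcl1 fall. Their summed level was 129 to 293 CPM with ConA, 158 to 813 CPM with TAA, 24.8 to 40.2 CPM with GAL and 10.4 to 74.2 CPM with CCl4. The sums were 2.11 to 60.8 CPM in Ctrl, 5.52 and 5.73 CPM in CIP and 7.81 and 9.00 CPM in CIV. Their part in the ligand levels was not tested.

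**Figure D2:**
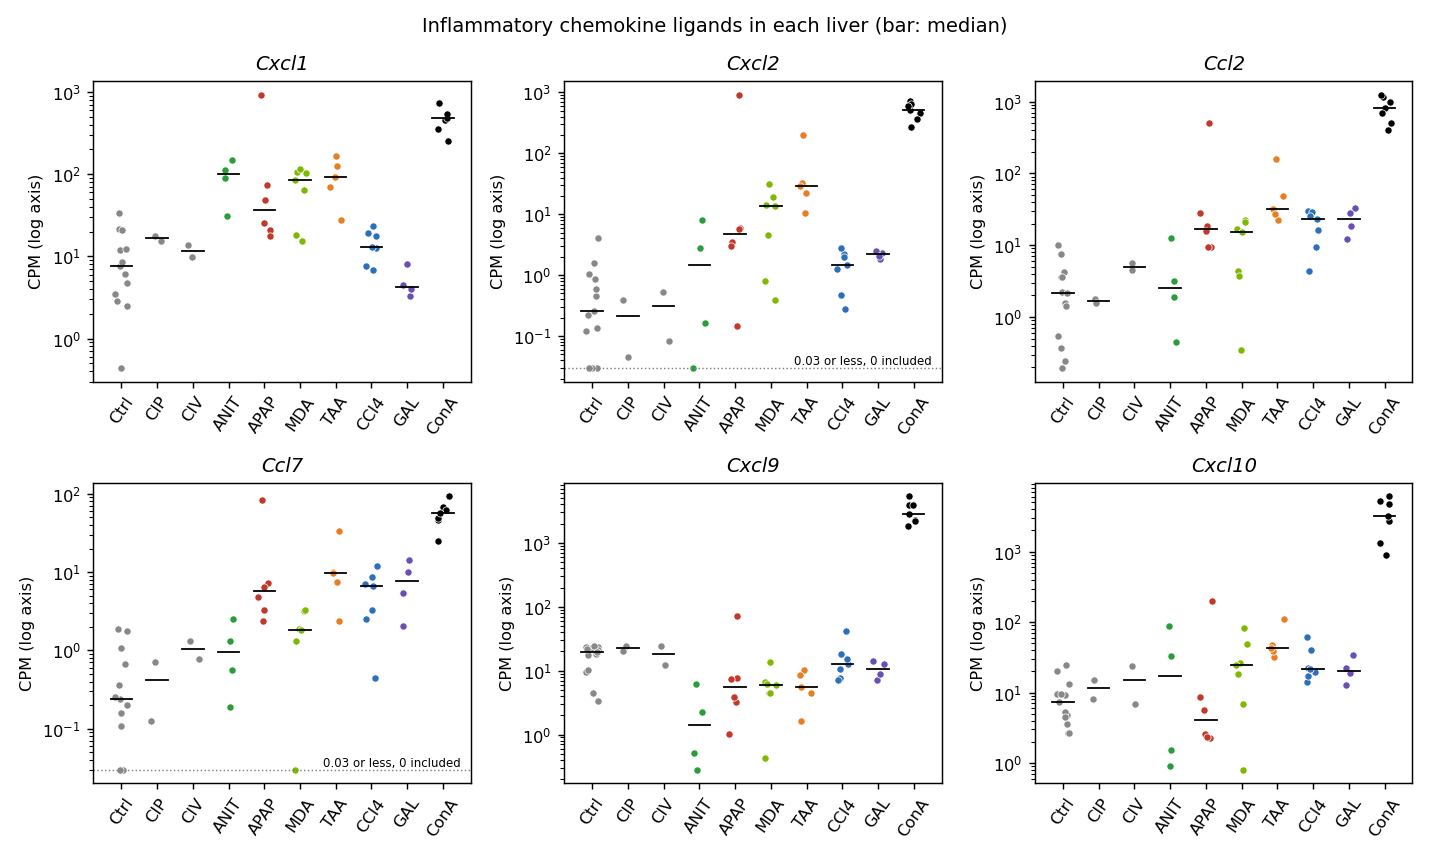
CPM (log axis) of Cxcl1, Cxcl2, Ccl2, Ccl7, Cxcl9 and Cxcl10 in each of the 57 livers by group, 1 point per mouse with a bar at the median and values at or under 0.03 CPM drawn on the dotted line. In all 6 panels the 7 ConA livers lie above every vehicle liver, and 1 APAP liver lies above the other 5.

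The interferon-induced ligands of Cxcr3 split the compounds. Cxcl9, induced mainly by interferon gamma, had a Ctrl median of 19.5 CPM (3.35 to 24.1), 24.6 and 20.0 CPM in CIP and 12.2 and 24.7 CPM in CIV. With ConA it ran from 1812 to 5339 CPM (median 2819), above every other liver of the series (7.48 ± 0.65, adjusted p = 5.31e-05). It fell with ANIT, where the livers had 6.13, 0.282, 0.511 and 2.26 CPM (-2.91 ± 0.69, adjusted p = 0.00455). MDA livers lay between 0.427 and 13.5 CPM (median 6.06; -1.49 ± 0.44, adjusted p = 0.0117). TAA livers had 10.3, 8.46, 4.51, 5.52 and 1.62 CPM (-1.41 ± 0.45, adjusted p = 0.014). In these 3 groups the values overlapped the lowest Ctrl mice. Without ANIT mouse 1 the ANIT fold change was -4.04 ± 0.74. Within numbers 1 to 4 alone the call was lost for ANIT (adjusted p = 0.105), MDA (adjusted p = 0.246) and TAA (adjusted p = 0.889), and within numbers above 4 for MDA (adjusted p = 0.0806). GAL livers, at 7.23, 14.0, 12.7 and 8.84 CPM, lay under both CIP mice (-1.06 ± 0.32, adjusted p = 0.0478), and the call was lost, among others, against all 17 vehicle mice (adjusted p = 0.114), with library totals (adjusted p = 0.441) and without CIP mouse 7 (adjusted p = 0.223) or 8 (adjusted p = 0.115).

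Cxcl10 is induced by interferons and through NF-kB. It ran from 897 to 6099 CPM with ConA (median 3209) against 23.5 and 6.81 CPM in CIV (7.86 ± 1.10, adjusted p = 0.000552), or 9.06 ± 1.53 without CIV mouse 7 and 7.22 ± 1.41 without CIV mouse 8. It rose with TAA, where Cxcl9 fell. These livers had 47.4, 31.9, 38.6, 109 and 42.4 CPM against 2.67 to 24.5 CPM in Ctrl (2.62 ± 0.43, adjusted p = 5.09e-05), and all 5 lay above every vehicle mouse. In MDA livers it rose by 1.72 ± 0.54 (log2; 0.806 to 82.0 CPM, median 25.0), a call lost without MDA mouse 7 (adjusted p = 0.0895), with limma (adjusted p = 0.106) and within numbers 1 to 4 (adjusted p = 0.0933) or above 4 (adjusted p = 0.0619). ANIT livers had 33.1, 0.918, 87.2 and 1.52 CPM, and no call was made. Cxcl11 reached at most 1.87 CPM in any liver outside ConA, where it ran from 3.23 to 22.2 CPM (4.30 ± 0.86). It fell with TAA (-2.13 ± 0.44), APAP (-1.40 ± 0.38) and ANIT (-1.23 ± 0.41). The ANIT call was lost with the number range as a covariate (adjusted p = 0.106), with limma, without the filter and without any 1 of the 4 ANIT mice. Within numbers 1 to 4 those of APAP (adjusted p = 0.376) and TAA (adjusted p = 0.114) were lost.

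Ccl2 and Ccl7, ligands of Ccr2 that mobilise monocytes, were called higher in 6 of 7 comparisons each, all but ANIT. With the number range as a covariate both were called higher with ANIT too, as given below. Ccl2 had a Ctrl median of 2.14 CPM (0.196 to 10.1), 1.79 and 1.59 CPM in CIP and 4.47 and 5.64 CPM in CIV. ConA livers ran from 397 to 1245 CPM (median 820.3; 7.41 ± 0.61, adjusted p = 4.23e-05). TAA livers had 22.4, 32.2, 47.9, 159 and 26.8 CPM, all above the vehicle mice (4.34 ± 0.65, adjusted p = 1.61e-05). GAL livers had 12.3, 32.9, 28.0 and 18.7 CPM, above every vehicle mouse of any route (3.76 ± 0.51, adjusted p = 0.00463). CCl4 livers ran from 4.41 to 30.1 CPM (median 23.1), above both CIP mice (3.58 ± 0.78, adjusted p = 0.00668) and in part within the Ctrl range. The CCl4 call was lost without CIP mouse 7 (adjusted p = 0.056) or 8 (adjusted p = 0.0685). MDA livers overlapped the controls, from 0.345 to 22.3 CPM with a median of 15.1 (2.04 ± 0.64, adjusted p = 0.0169).

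Ccl7 had a Ctrl median of 0.241 CPM (0 to 1.87), 0.124 and 0.713 CPM in CIP and 0.785 and 1.32 CPM in CIV. Its ConA range was 24.8 to 92.7 CPM (median 56.9; 5.81 ± 0.58, adjusted p = 9.49e-05). TAA livers had 2.38, 7.37, 9.96, 33.8 and 9.64 CPM (4.59 ± 0.69, adjusted p = 1.69e-05), and GAL livers 2.02, 14.1, 10.0 and 5.43 CPM (4.49 ± 1.13, adjusted p = 0.0292). Both groups lay above every vehicle mouse. The CCl4 (0.442 to 12.0 CPM; 4.04 ± 1.29, adjusted p = 0.0375) and MDA livers (0 to 3.28 CPM; 1.84 ± 0.70, adjusted p = 0.0468) overlapped their controls. The MDA call was lost without any 1 of 16 different mice, with DESeq2 (adjusted p = 0.0648), with library totals (adjusted p = 0.0799), without the filter and within numbers above 4. Of those that leave out 1 mouse, 6 ended the call for CCl4 and 5 that for GAL, CIP mouse 7 (adjusted p = 0.211 and 0.141) and CIP mouse 8 (adjusted p = 0.0814 and 0.0782) among them. Without CIP mouse 7 and 8 the fold changes were 3.08 ± 1.62 and 5.60 ± 1.91 with CCl4 and 3.52 ± 1.34 and 5.96 ± 1.56 with GAL. The GAL call was also lost with the number range as a covariate (adjusted p = 0.0564). Ccl8, another ligand of this cluster, rose with ConA, from 0.560 and 0 CPM in CIV to between 3.66 and 11.7 CPM (4.56 ± 1.07, or 3.57 ± 0.81 without CIV mouse 8). Without CIV mouse 7 the one control left was at 0. Ccl12 rose with ConA (3.83 ± 0.81), APAP (2.54 ± 0.75) and TAA (2.21 ± 0.82). The TAA call was lost without any 1 of 3 mice, mouse 7 (adjusted p = 0.119) among them, with DESeq2 (adjusted p = 0.0795) and without the filter. The APAP call was lost without mouse 1 (adjusted p = 0.0874) and within numbers above 4 (adjusted p = 0.193). The ConA fold change was 5.43 ± 1.09 without CIV mouse 8 and 3.11 ± 0.90 without CIV mouse 7.

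Markers of monocytes (Ly6c2, Ccr2, Chil3, Plac8, F13a1, S100a4) were called higher in 4 of 6 tested genes with APAP, 4 of 6 with TAA, 4 of 6 with CCl4, 5 of 6 with GAL and 1 of 4 with ConA. With MDA, where Ccl2 and Ccl7 were called higher, 0 of 5 markers were called. With ANIT 0 of 4 were called higher and 1 lower. With CCl4 and with GAL, 2 of the called markers had no CIP mouse at the filter and had to differ. Their summed level was 57.0 to 109 CPM with ConA, 68.1 to 126 CPM with GAL, 58.8 to 101 CPM with TAA and 9.06 to 62.2 CPM in Ctrl. Their part in the ligand levels was not tested.

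Ccl3, Ccl4 and Ccl5 draw T cells, NK cells and monocytes, and Ccl6 and Ccl9 act through Ccr1. Ccl5 rose with ConA, from 6.31 and 3.67 CPM to between 104 and 205 CPM (4.95 ± 0.47), and fell with ANIT (-1.57 ± 0.41, or -2.28 ± 0.41 without ANIT mouse 4) and MDA (-1.18 ± 0.28). The ANIT fall was not called with the number range as a covariate (adjusted p = 0.076) or within numbers 1 to 4 (adjusted p = 0.16), and the MDA fall not within numbers above 4 (adjusted p = 0.0755). Ccl3 ran from 11.1 to 24.6 CPM with ConA against 0.561 and 0.525 CPM in CIV (5.24 ± 0.44), and rose by 3.21 ± 0.75 (log2) with TAA, a call lost without TAA mouse 7 (adjusted p = 0.0948). Ccl4 was called higher with ConA, APAP, TAA and GAL. TAA livers had 3.21, 2.50, 2.99, 30.6 and 2.87 CPM of Ccl4, above all vehicle mice (Ctrl 0 to 1.94 CPM; 3.60 ± 0.65, adjusted p = 0.000134). GAL livers had 3.49, 8.76, 9.57 and 3.81 CPM against 0.796 and 0 CPM in CIP (3.74 ± 1.06, adjusted p = 0.0418), a call lost without CIP mouse 8 (adjusted p = 0.1) or any 1 of 3 GAL mice, without the filter, with the number range as a covariate and within numbers above 4 (adjusted p from 0.0505 to 0.0835 in the alternatives other than CIP mouse 8). The fold change was 2.94 ± 0.87 without CIP mouse 8, and without CIP mouse 7 the one control left was at 0.

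Ccl6, a ligand made by macrophages and other myeloid cells, gave a different set of compounds. It rose with all 4 gavage compounds and with GAL. Ctrl livers had 3.92 to 17.3 CPM (median 13.7), CIP 10.9 and 9.87 and CIV 12.6 and 11.8 CPM. APAP livers ran from 22.6 to 124 CPM (median 43.0; 2.43 ± 0.35, adjusted p = 3.24e-05). GAL livers had 41.0, 47.5, 67.1 and 48.0 CPM (2.30 ± 0.28, adjusted p = 0.00344). TAA livers had 28.2, 57.0, 42.8, 59.0 and 49.4 CPM (2.09 ± 0.28, adjusted p = 4.33e-06). All of these mice lay above every vehicle mouse. ANIT livers, with 25.4, 29.0, 38.2 and 24.6 CPM, did so too (1.36 ± 0.31, adjusted p = 0.00306), while MDA livers, with 13.7 to 44.8 CPM and a median of 24.1, overlapped (1.37 ± 0.28, adjusted p = 0.000799). With ConA, Ccl6 had a median of 5.01 CPM (4.06 to 18.2) and was not called against CIV (adjusted p = 0.452) or against all 17 vehicle mice (adjusted p = 0.171).

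Ccl9, a close relative of Ccl6, fell with GAL. These livers had 23.6, 13.6, 15.6 and 17.4 CPM against 66.1 and 63.3 CPM in CIP (-1.89 ± 0.23, adjusted p = 0.00351), and lay below every vehicle mouse of any route. The fall was also called with library totals (-1.11 ± 0.29, adjusted p = 0.0236). The same 4 GAL livers thus had more Ccl6 and less Ccl9. Ccl9 rose with TAA (0.73 ± 0.17), MDA (0.65 ± 0.18) and APAP (0.60 ± 0.18). The MDA call was lost within numbers 1 to 4 (adjusted p = 0.0644) and above 4 (adjusted p = 0.0615), the TAA call within numbers above 4 (adjusted p = 0.051) and the APAP call without mouse 1 (adjusted p = 0.0646) and within numbers 1 to 4 (adjusted p = 0.0534) or above 4 (adjusted p = 0.291). Kupffer cell markers (Clec4f, Vsig4, Timd4, Cd5l, Marco, Folr2) summed to 30.4 to 56.3 CPM with ConA against 311 and 312 CPM in CIV, with 6 of 6 called lower, and to 384 to 545 CPM with GAL against 328 and 350.3 CPM in CIP. Hepatocyte markers were called lower in 4 of 6 with GAL (median log2 fold change -0.99; 6 of 6 against all 17 vehicle mice) and in 6 of 6 with CCl4 (median -1.37), with sums of 25590.0 to 33860.0 CPM and 19330.0 to 29410.0 CPM against 54800.0 and 60710.0 CPM in CIP. The part of these markers in the Ccl6 and Ccl9 levels, and that of the hepatocyte markers in the falls of Ccl27a and Cxcl12 below, was not tested.

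Eotaxin Ccl11, a ligand of Ccr3 that draws eosinophils, ran from 15.6 to 103 CPM with ConA (median 60.3), against 0.0416 and 0.0736 CPM in CIV. In the other 9 groups it reached at most 0.447 CPM in any liver. Ccl24, another Ccr3 ligand, was not called with ConA against CIV (10.2 to 38.0 CPM against 9.99 and 8.08 CPM) but was called higher against all 17 vehicle mice (1.40, adjusted p = 9.89e-06). Of the Ccr4 ligands, which draw regulatory and helper T cells, Ccl17 went from 0 and 0.120 CPM in CIV to between 1.12 and 6.54 CPM with ConA. Ccl22 was called against all 17 vehicle mice with ConA, CCl4 and GAL and against no route vehicle.

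Among homeostatic ligands, Ccl27a, known as a skin T cell attractant, fell with every compound. Vehicle livers had 10.8 to 17.2 CPM in Ctrl (median 13.3), 13.9 and 16.2 in CIP and 17.1 and 13.9 in CIV. GAL livers had 3.55, 2.92, 3.04 and 3.47 CPM (-2.21 ± 0.18, adjusted p = 0.00208). ConA livers had 1.98 to 5.03 CPM with a median of 3.48 (-2.04 ± 0.33, adjusted p = 0.00118). In these groups, and in the next 4 described, every mouse lay below every vehicle mouse. ANIT livers had 5.75, 5.65, 3.49 and 4.45 CPM (-1.51 ± 0.15, adjusted p = 2.96e-06) and TAA livers 9.00, 7.64, 5.98, 6.01 and 7.79 CPM (-0.87 ± 0.13, adjusted p = 1.29e-05). MDA livers ran from 3.44 to 10.2 CPM (median 5.55; -1.15 ± 0.16, adjusted p = 1.45e-05) and CCl4 livers from 4.07 to 9.20 CPM (median 6.53; -1.15 ± 0.23, adjusted p = 0.00449). APAP livers, from 4.63 to 11.0 CPM (median 7.10), overlapped the lowest Ctrl mouse (-0.86 ± 0.16, adjusted p = 0.000307). The CCl4 fall was not called with library totals (adjusted p = 0.0515) or without CIP mouse 8 (adjusted p = 0.0546), nor were those of APAP and TAA within numbers 1 to 4 (adjusted p = 0.0955 and 0.1). The near-identical copy Ccl27b was not among the genes analysed here, and how reads were divided between copies or overlapping genes was not tested.

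Cxcl12, which holds stem cells and lymphocytes in place through Cxcr4, fell in 6 comparisons. Ctrl livers had 97.4 to 148 CPM (median 119), CIP 122 and 88.2 and CIV 95.5 and 118 CPM. TAA livers had 47.0, 34.9, 38.2, 40.0 and 34.9 CPM (-1.58 ± 0.12, adjusted p = 2.02e-09). GAL livers had 45.6, 37.6, 30.8 and 35.1 CPM (-1.50 ± 0.22, adjusted p = 0.00579). In both groups every mouse lay below every vehicle mouse. The same held for ConA, with 39.2 to 60.0 CPM (median 52.3; -1.02 ± 0.22, adjusted p = 0.00562), and CCl4, with 43.3 to 61.7 CPM (median 55.3; -0.94 ± 0.16, adjusted p = 0.00153). With APAP (-0.61 ± 0.12, adjusted p = 0.000924) and MDA (-0.39 ± 0.10, adjusted p = 0.0034) the ranges overlapped, and with ANIT, at 76.8, 106, 92.7 and 116 CPM, no call was made. With library totals the calls of GAL (adjusted p = 0.0796), CCl4 (adjusted p = 0.102) and APAP (adjusted p = 0.0555) were lost. So were that of MDA within numbers 1 to 4 (adjusted p = 0.105) and above 4 (adjusted p = 0.0699) and that of APAP within numbers 1 to 4 (adjusted p = 0.0883). Sinusoidal endothelial markers (Stab2, Clec4g, Oit3, Bmp2, Gpr182) summed to 40.3 to 66.4 CPM with TAA, 57.7 to 80.8 CPM with CCl4, 18.6 to 38.4 CPM with ConA and 97.8 to 132 CPM with GAL, against 90.7 to 162 CPM in Ctrl. They were called lower in 5 of 5 tested with TAA, 4 of 5 with CCl4, 3 of 5 with ConA and 0 of 5 with GAL. Against all 17 vehicle mice 2 of 5 were called lower and 1 higher with GAL, and 5 of 5 lower with ConA. Their part in the Cxcl12 levels was not tested.

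**Figure D3:**
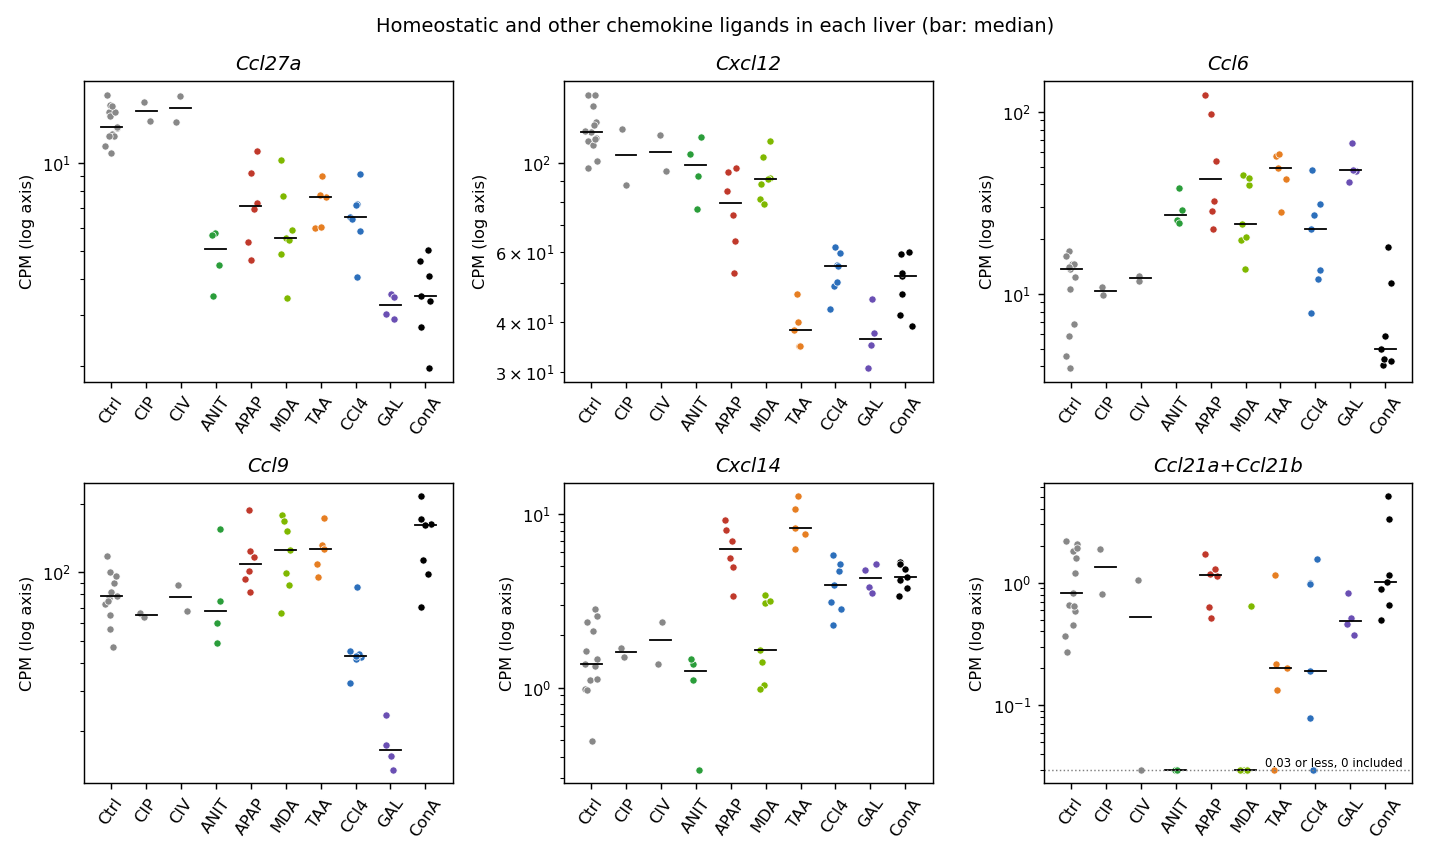
CPM (log axis) of Ccl27a, Cxcl12, Ccl6, Ccl9, Cxcl14 and the sum of Ccl21a and Ccl21b in each of the 57 livers by group, 1 point per mouse with a bar at the median. The median of Ccl27a is lower in all 7 treated groups than in any vehicle group, Ccl6 is high with GAL where Ccl9 is low, and all 4 ANIT livers are at 0 for the Ccl21 sum.

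Ccl21a, which draws Ccr7-bearing dendritic cells and T cells and is made by lymphatic endothelium and lymphoid stroma, was at 0 in all 4 ANIT and all 7 MDA livers. Every Ctrl liver was above 0, from 0.275 to 2.20 CPM (median 0.661). Against a floor of 3 estimated counts per library the means were at least 5.8-fold lower with ANIT and at least 6.75-fold lower with MDA. The near-identical copy Ccl21b was at 0 in 54 of the 57 mice, Ccl21c was not among the genes analysed here, and the authors' counting could divide reads between such copies. Summed over Ccl21a and Ccl21b, ANIT livers stayed at 0 and 1 MDA liver had 0.645 CPM (log2 fold change of the sum with MDA -3.53 ± 0.82). The sum fell with TAA (-1.71 ± 0.70, adjusted p = 0.0488), but Ccl21a alone was not called (-1.59 ± 0.70, adjusted p = 0.0649), with Ccl21b at 0 in every TAA liver. Among the Ctrl livers Ccl21b was above 0 only in mouse 7, at 1.16 CPM, so the call of the sum rests on that mouse. B cell markers (Cd79a, Cd79b, Ms4a1, Ighm) were called lower in 3 of 3 tested genes with ANIT and 3 of 3 with MDA, of which 2 with ANIT and 1 with MDA passed the filter through the controls alone. They summed to 1.14 to 1.98 CPM with ANIT, 0.678 to 2.62 CPM with MDA and 4.08 to 9.32 CPM in Ctrl. With TAA they went the other way, with 3 of 3 called higher and sums of 11.4 to 18.6 CPM. Lymphatic endothelial markers (Flt4, Pdpn, Mmrn1, Tbx1) summed to 8.50 to 14.6 CPM with ANIT, 4.47 to 15.4 CPM with MDA, 4.96 to 6.63 CPM with TAA and 6.25 to 12.7 CPM in Ctrl. Of those tested, 0 of 1 was called with ANIT, 0 of 1 with MDA and 1 of 1, lower, with TAA. T and NK cell markers (Cd3d, Cd3e, Cd3g, Nkg7, Ncr1, Cd8a) were called lower in 1 of 3 tested with ANIT. With MDA the count was 1 of 2, and with TAA 1 of 4. Dendritic cell markers (Flt3, Zbtb46, Xcr1, Clec9a, Cd209a, Siglech) gave no call, with 2 tested with ANIT, 2 with MDA and 3 with TAA. The part of these markers in the Ccl21a levels was not tested.

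Ccl19, the other Ccr7 ligand, rose with ConA, to between 12.5 and 42.0 CPM from 2.96 and 3.43 CPM (2.97 ± 0.52). Cxcl13, the B cell attractant, rose with ANIT, where the livers had 0.229, 2.12, 7.69 and 7.48 CPM against 0.449 to 3.10 CPM in Ctrl (1.82 ± 0.58), with overlap. That call was lost without ANIT mouse 3 (adjusted p = 0.157) or 4 (adjusted p = 0.124), with library totals (adjusted p = 0.0603) and with limma (adjusted p = 0.0801). Ccl25, which draws T cells through Ccr9, fell with ANIT (-1.07 ± 0.26).

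Cxcl14, a ligand of epithelia, rose with 5 compounds. Ctrl livers had 0.489 to 2.82 CPM (median 1.37), CIP 1.51 and 1.68 and CIV 2.38 and 1.37 CPM. TAA livers had 12.6, 8.32, 7.70, 6.26 and 10.7 CPM (2.59 ± 0.28, adjusted p = 2.62e-07). APAP livers had 3.35 to 9.27 CPM with a median of 6.26 (2.06 ± 0.28, adjusted p = 1.7e-05), and GAL livers 3.81, 4.74, 5.16 and 3.48 CPM (1.44 ± 0.29, adjusted p = 0.0152). All 3 groups lay above every vehicle mouse, as did ConA livers, with 3.38 to 5.32 CPM and a median of 4.36 (1.29 ± 0.34, adjusted p = 0.0151). CCl4 livers ran from 2.29 to 5.79 CPM (median 3.91; 1.36 ± 0.39, adjusted p = 0.0233), above both CIP mice. The calls of GAL and CCl4 were lost without either CIP mouse (adjusted p = 0.082 and 0.0876 for GAL, 0.13 and 0.119 for CCl4, without mouse 7 and 8), and that of ConA without CIV mouse 8 (adjusted p = 0.105), with library totals (adjusted p = 0.277) or within numbers above 4 (adjusted p = 0.0879). ANIT and MDA livers, with 0.337 to 1.45 and 0.981 to 3.42 CPM, gave no call. Of the membrane-bound ligands, which both hold and draw leukocytes, Cxcl16 and Cx3cl1 rose with ConA (1.17 ± 0.37 and 2.32 ± 0.74) and with APAP (0.40 ± 0.13 and 1.36 ± 0.47). The ConA calls were lost without CIV mouse 7 (adjusted p = 0.0972 and 0.157) or 8 (adjusted p = 0.179 and 0.137) and with library totals (adjusted p = 0.34 and 0.115), and each was also lost without at least 1 of the ConA mice, without the filter, with the number range as a covariate and within numbers above 4. Cx3cl1 with ConA was lost with limma too (adjusted p = 0.0826). With APAP, Cx3cl1 was lost without mouse 1 (adjusted p = 0.12) or 8 (adjusted p = 0.154), and Cxcl16 without mouse 8 (adjusted p = 0.0554) or 11 (adjusted p = 0.0506). Both APAP calls were lost without the filter and within either number range, and that of Cx3cl1 with limma (adjusted p = 0.0563).

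With APAP the mice have to be read apart. Mouse 1 was the highest of the 6 in 22 of the 34 ligands above 0 in this group. Its Cxcl2 was 915 CPM against 0.145 to 5.95 in the other 5, its Cxcl1 926 CPM against 17.9 to 73.2, and its Ccl2 496 CPM against 9.30 to 27.9. Ccl7 was 82.8 CPM against 2.40 to 7.20, Ccl5 186 CPM against 2.94 to 5.94, Cxcl10 202 CPM against 2.28 to 8.77 and Cxcl9 71.6 CPM against 1.00 to 7.76. The order did not hold for Ccl6, at 32.3 CPM against 22.6 to 124, or Cxcl14, at 4.97 CPM against 3.35 to 9.27. In mouse 1 the marker sums were 43.7 CPM for cholangiocytes against 5.80 to 10.0 in the others, 46.9 CPM for sinusoidal endothelium against 76.7 to 122, 41.4 CPM for neutrophils against 13.4 to 261, 90780.0 CPM for hepatocytes against 60950.0 to 69310.0, and 174 CPM for stellate cells against 81.8 to 141. Its TMM factor was 0.72 against 1.11 to 1.25. The part of these in the ligand levels was not tested.

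**Figure D4:**
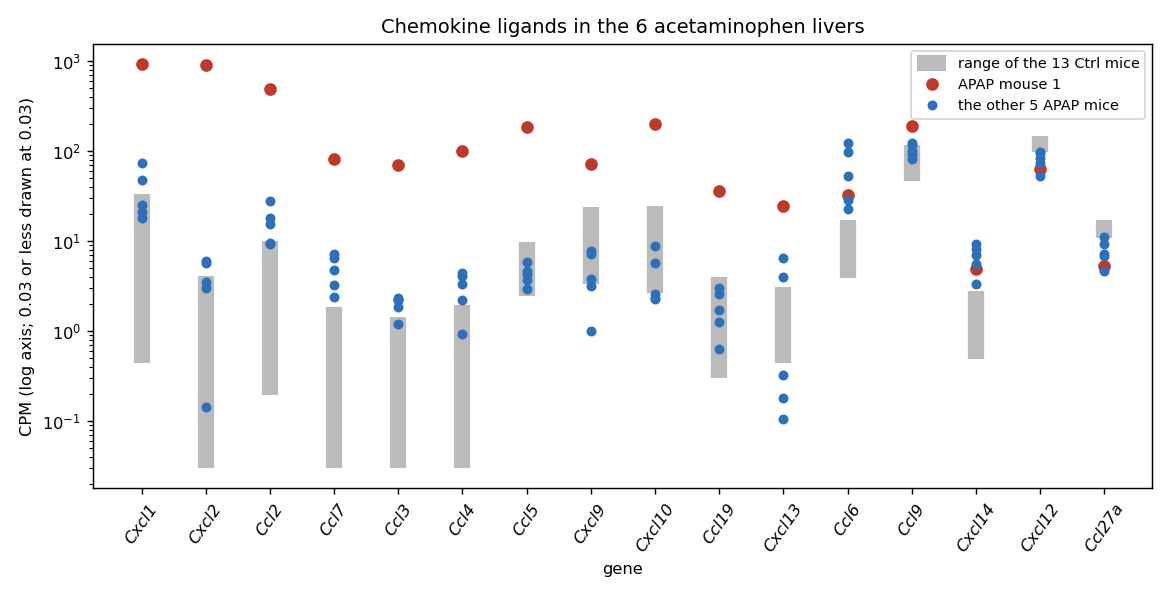
CPM (log axis) of 16 chemokine ligands in the 6 APAP livers, with mouse 1 in red, the other 5 in blue and the range of the 13 Ctrl mice as a grey bar. Mouse 1 lies above the other 5 for Cxcl1, Cxcl2, Ccl2, Ccl7 and Cxcl10 and among them for Ccl6 and Cxcl14.

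Without mouse 1, 14 ligands were called, 9 higher and 5 lower, beside 29.1% of all genes, and 12 of the 19 calls remained. Ccl2 then rose by 2.49 ± 0.61, adjusted p = 0.00441 in place of 5.09 ± 0.86, adjusted p = 0.000163 (log2, edgeR). Cxcl2 rose by 2.33 ± 0.81, adjusted p = 0.0377 in place of 7.73 ± 1.30, adjusted p = 0.000161, and was not called within numbers above 4 (adjusted p = 0.0715). Cxcl1 rose by 1.86 ± 0.58, adjusted p = 0.0214 in place of 4.20 ± 0.79, adjusted p = 0.000465. Ccl7 rose by 3.20 ± 0.67 in place of 5.09 ± 0.81, Ccl3 by 1.97 ± 0.65 in place of 4.74 ± 0.85, and Ccl4 by 2.09 ± 0.58 in place of 4.79 ± 0.83. The calls of Ccl5, Ccl9, Ccl12, Ccl19, Cx3cl1, Cxcl10 and Cxcl13 were lost. Within numbers above 4, the range of 3 APAP mice, Ccl3 (adjusted p = 0.103), Ccl4 (adjusted p = 0.141) and the ligands that mouse 1 decided were not called. Cxcl10 changed sign, from 2.09 ± 0.78 to -1.03 ± 0.52, adjusted p = 0.148, as did Ccl5 (to -0.18 ± 0.26, adjusted p = 0.675) and Ccl19 (to -0.14 ± 0.42, adjusted p = 0.852). With all 6 mice these 3 calls were also lost with limma (adjusted p = 0.9, 0.322 and 0.367), with the number range as a covariate (adjusted p = 0.301, 0.101 and 0.167) and within numbers 1 to 4. That of Cxcl10 was lost as well with library totals (adjusted p = 0.0945), without the filter (adjusted p = 0.0717) and without any 1 of 10 Ctrl mice (adjusted p = 0.0558 to 0.0634), and that of Cxcl13 with limma (adjusted p = 0.28). Cxcl9 was then called lower (-1.83 ± 0.49, adjusted p = 0.00781), and so was Ccl25 (-0.62 ± 0.22, adjusted p = 0.0425). Ccl6 (2.55 ± 0.36) and Cxcl14 (2.11 ± 0.29) stayed near their values with all mice. DESeq2 gave an adjusted p to 19 of the 39 ligands with APAP and called 10, beside 28.2% of all genes.

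In TAA, mouse 7 was the highest in 15 of 32 ligands above 0, with Cxcl2 at 202 CPM against 10.5 to 32.3 and Ccl2 at 159 CPM against 22.4 to 47.9 in the other 4. It also had the highest neutrophil marker sum, 813 CPM against 158 to 371. Without it 13 of the 16 calls remained, with Cxcl2 at 5.01 ± 0.75, Ccl2 at 3.51 ± 0.63, Ccl7 at 3.82 ± 0.71 and Ccl4 at 2.07 ± 0.60 (log2), and those of Ccl3, Ccl12 and Xcl1 were lost. The Xcl1 call was also lost without mouse 1, 3 or 6, with limma and without the filter. Xcl1, made by T and NK cells, was at 0 in 4 of the 5 TAA livers and at 0.151 CPM in mouse 8.

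Some ligands differed among the gavage controls. Between the 4 numbered 1 to 4 and the other 9, Ccl2 differed without overlap, with 0.196 to 0.547 CPM in the 4 and 1.41 to 10.1 CPM in the 9, and so did Ccl6, with 3.92 to 6.84 CPM in the 4 and 10.6 to 17.3 CPM in the 9. For Ccl19 and Cxcl13, too, all 4 lay below all 9. Xcl1 was at 0 in all 4 and in 1 of the 9. Hepatocyte marker sums were 81070.0 to 116100.0 CPM in the 4 and 50580.0 to 77340.0 CPM in the 9, and their part was not tested. These ligands were picked after their values were seen, so no test is given. The labels do not say what the numbers mark.

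**Figure D5:**
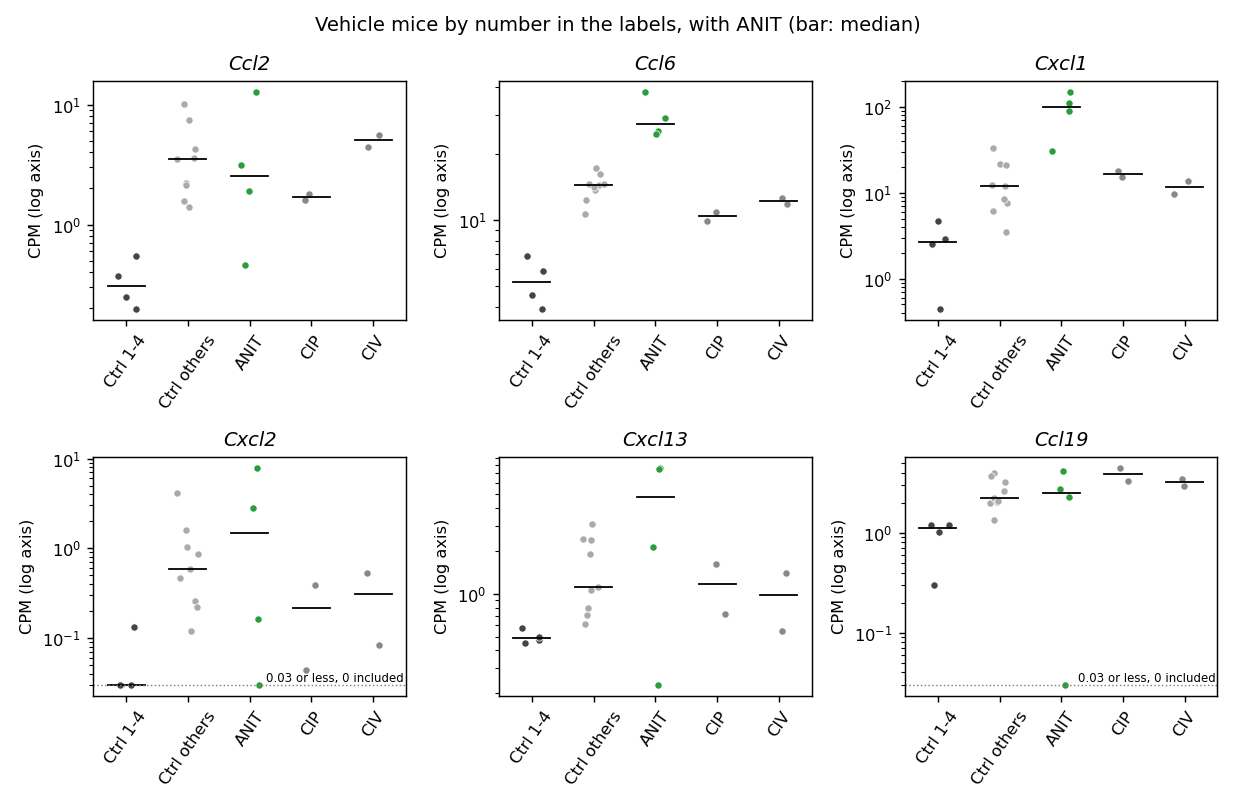
CPM (log axis) of Ccl2, Ccl6, Cxcl1, Cxcl2, Cxcl13 and Ccl19 in the gavage controls numbered 1 to 4, the other 9 gavage controls, the 4 ANIT livers and the 2 CIP and 2 CIV livers, with a bar at the median. The first 4 controls lie below all other 9 for Ccl2, Ccl6, Cxcl13 and Ccl19.

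All 4 ANIT mice carry the numbers 1 to 4. With the number range as a covariate, 7 ligands were called higher and 4 lower with ANIT, beside 9.17% and 9.90% of all genes. Added to the rises were Ccl2 (3.76 ± 0.91, adjusted p = 0.00814), Ccl7 (4.34 ± 1.26, adjusted p = 0.023), Ccl3 (3.18 ± 1.05, adjusted p = 0.0426) and Cxcl2 (6.13 ± 1.74, adjusted p = 0.0204). Cxcl1 rose by 5.16 ± 0.78 in place of 3.19 ± 0.61, and Ccl6 by 2.46 ± 0.20 in place of 1.36 ± 0.31. Ccl5 and Cxcl11 lost their calls. Within numbers 1 to 4 alone, 4 of 13 ligands tested were called with ANIT, Cxcl1 and Ccl6 higher and Ccl25 and Ccl27a lower, beside 13.7% of all genes. For the other gavage compounds the counts within numbers 1 to 4 and above 4 were 8 of 21 and 9 of 26 for APAP (beside 6.28% and 20.2% of all genes), 4 of 14 and 7 of 26 for MDA (beside 10.4% and 20.6% of all genes), and 11 of 22 and 17 of 26 for TAA (beside 19.4% and 47.4% of all genes).

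Neither CIP nor CIV mice differed from Ctrl at an adjusted p under 0.05 in any of 27 ligands tested (edgeR), beside 0.0131% and 0.0263% of all genes called. DESeq2 called 0 as well, beside 1.01% and 0.528%. At an unadjusted p under 0.05 the counts were 1 with CIP and 0 with CIV, from 2 mice each.

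When the 17 vehicle mice were pooled as controls, the calls were 9 of 25 ligands with ANIT beside 28.0% of all genes, 20 of 25 with APAP beside 33.4%, 13 of 23 with MDA beside 34.2%, and 18 of 26 with TAA beside 49.7%. For the injected compounds they were 14 of 26 with CCl4 beside 53.4%, 14 of 27 with GAL beside 52.5% and 25 of 31 with ConA beside 68.0%. The CCl4 count thus went from 5 to 14. Ccl3 (2.07, adjusted p = 0.0027), Ccl4 (2.52, adjusted p = 0.00014), Ccl6 (1.00, adjusted p = 0.00351) and Cxcl10 (1.45, adjusted p = 0.00213) were among those added higher. Ccl9 (-0.72, adjusted p = 0.000597) and Cxcl11 (-0.96, adjusted p = 0.00333) were added lower. All 6 overlapped the vehicle mice in range.

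Each compound's effect was also tested against the mean effect of the other 6 in 1 fit over all 57 mice, with 33 ligands tested. These contrasts share vehicle mice, and all of them include APAP mouse 1. No contrast was fitted without that liver. ConA stood above the others in 9 ligands and below in 1, beside 18.4% of all genes called. Its effect was larger for Cxcl9 (8.68 ± 1.50, adjusted p = 3.77e-05), Cxcl11 (5.48 ± 0.81), Cxcl10 (6.13 ± 1.78, adjusted p = 0.0113) and Ccl5 (5.09 ± 1.18, adjusted p = 0.00148), and smaller for Ccl6 (-2.44 ± 0.57, adjusted p = 0.00157). The Cxcl10 call was lost without CIV mouse 7 (adjusted p = 0.0557) or 8 (adjusted p = 0.148). ANIT stood below in 11, Ccl2 (-3.71 ± 1.08), Ccl4 (-4.06 ± 1.22) and Cxcl14 (-2.05 ± 0.39) among them, and above in Cxcl12 (0.72 ± 0.13), beside 18.3%. The calls of Ccl2 and Ccl4 were lost without ANIT mouse 2 (adjusted p = 0.0501 and 0.06), that of Ccl4 also without mouse 3 (adjusted p = 0.0523), and that of Cxcl12 with library totals (adjusted p = 0.198). This fit had no term for the number range, and all ANIT mice carry the numbers 1 to 4. With that range as a covariate Ccl2 was called higher with ANIT against Ctrl, as given above. APAP stood above in 9, beside 9.21%, and how far these rest on mouse 1 was not tested. Ccl5 and Cxcl13 were among the 9, and without mouse 1 neither was called against Ctrl. MDA stood below in 7 and above in 2, beside 19.5%. GAL stood below in Cxcl1 (-4.84 ± 1.06, adjusted p = 0.000704), Ccl9 (-2.28 ± 0.36), Ccl27a (-0.92 ± 0.28) and Cxcl12 (-0.65 ± 0.19), beside 16.9%. Ccl27a was not called with library totals (adjusted p = 0.89) or without CIP mouse 8 (adjusted p = 0.147), GAL mouse 4 or GAL mouse 7. Cxcl12 changed sign with library totals (0.11, adjusted p = 0.864) and was not called without CIP mouse 7 (adjusted p = 0.242), GAL mouse 7 or GAL mouse 8. TAA stood above in Cxcl14 (1.55 ± 0.29) and Ccl27a (0.59 ± 0.19) and below in Cxcl11 (-2.05 ± 0.48) and Cxcl12 (-0.83 ± 0.14), beside 8.14%. The Ccl27a call was lost with library totals (adjusted p = 0.234) and without any 1 of 12 mice. CCl4 stood below in Cxcl1 (-3.04 ± 0.86, adjusted p = 0.0166), beside 8.99%, a call lost without CIP mouse 7 (adjusted p = 0.0701) or 8 (adjusted p = 0.107). With library totals the calls above and below were 7 and 3 for ConA (beside 35.8% of all genes), 1 and 8 for MDA (beside 14.5%), 1 and 2 for TAA (beside 4.84%), and 1 and 2 for GAL (beside 25.7%).

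Of 22 chemokine receptors, 7 of 7 tested rose with ConA, beside 16.8% of all genes called higher. With TAA 7 of 10 rose, beside 26.4%, and with APAP 6 of 7, beside 17.3%. With GAL 3 of 11 rose, beside 12.8%, and with CCl4 1 of 11 rose and 2 fell, beside 18.0% and 15.6%. Receptors that are low in control livers were tested only where treated livers brought them past the filter, so these shares are descriptions. No control mouse reached the filter for Ackr3, Ccr1 and Ccr7 with ConA, Ccr7 with TAA, 5 receptors with GAL (Ccr1 and Ccr2 among those called) and 4 with CCl4 (Ccr2 among those called). With ANIT and MDA 0 of 5 were called in each. Receptor sums ran from 12.0 to 90.6 CPM with APAP (median 15.3), against 5.62 to 15.0 CPM in Ctrl (median 7.49). Receptor calls without APAP mouse 1 are not given here. Against all 17 vehicle mice, where the shares of all genes called are given above, the receptors called higher and lower were 6 and 1 of 11 with GAL, 4 and 2 of 8 with CCl4, 6 and 1 of 7 with ConA, 7 and 1 of 11 with TAA, 7 and 0 of 8 with APAP, 1 and 2 of 7 with MDA and 0 and 1 of 7 with ANIT. Ccrl2, which binds chemerin without signalling, had 62.3 to 275 CPM with ConA against 1.85 and 1.79 CPM in CIV (6.76 ± 0.67). Ccr7, the receptor of Ccl19 and Ccl21a, rose with ConA (4.98 ± 0.72). Cxcr2, the neutrophil receptor of Cxcl1 and Cxcl2, rose with TAA (4.45 ± 0.69), as did Ccr1 (4.77 ± 0.67). Ccr2, the receptor of Ccl2, rose with APAP (2.30 ± 0.56), TAA (2.32 ± 0.54), CCl4 (1.95 ± 0.65) and GAL (2.88 ± 0.59). The platelet chemokines Pf4 and Ppbp, whose symbols the rule does not match, both rose with TAA (2.30 ± 0.34 and 3.30 ± 0.45), and Pf4 rose with APAP (2.73 ± 0.41) and ConA (2.08 ± 0.58).

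Of 15 upstream cytokines and factors, 13 of 15 tested rose with ConA (beside 16.8% of all genes), 11 of 13 with TAA (26.4%), 8 of 13 with APAP (17.3%), 4 of 12 with MDA (17.4%), 4 of 13 with CCl4 (18.0%), 3 of 12 with ANIT (14.0%) and 3 of 13 with GAL (12.8%). The same limit holds here: no control mouse reached the filter for Ifng, Il6 and Fosl1 with ConA, or for Fosl1 with TAA, APAP, CCl4 and GAL, all called higher. Against all 17 vehicle mice the GAL count was 7 of 13, where 52.5% of all genes were called in either direction. The falls were those of Irf7 with ANIT (-1.86 ± 0.36), Irf1 and Irf7 with APAP (-0.52 ± 0.15 and -0.84 ± 0.27) and with TAA (-0.84 ± 0.23 and -1.03 ± 0.32), and Irf1 with CCl4 (-1.09 ± 0.31). Both encode interferon regulatory factors. Ifng, the inducer of Cxcl9, was at 0 in both CIV mice and at 0.443 to 3.23 CPM with ConA, and Il6 ran from 2.95 to 15.3 CPM against 0 and 0.188 CPM. Nfkbiz, an NF-kB cofactor, rose with ConA (4.71 ± 0.47), TAA (3.23 ± 0.30), APAP (2.55 ± 0.57), MDA (1.86 ± 0.28) and ANIT (1.62 ± 0.34). Summed over the 15 genes, APAP livers ran from 164 to 960 CPM (median 186), against 144 to 257 CPM in Ctrl (median 193). Calls of these genes without APAP mouse 1 are not given here. How these genes relate to the ligand levels was not tested.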

How the data were processed

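RNA from 57 perfused livers was sequenced as single-end stranded mRNA libraries, per the labels' protocols. The authors deposited 1 table of estimated counts per gene. The submitters' processing notes name Salmon 1.6.0, R 4.1.3 and the build GRCm39, without role or order. The smallest values above 0 fall with transcript length, so the counts may have been corrected for length, which no label states; levels are compared between mice, not between genes. Here the estimated counts were rounded, genes were kept by edgeR's filter on low counts, and each comparison was fitted on its own groups with edgeR 4.0.16 (TMM scaling, quasi-likelihood test, limma 3.58.1) in R 4.3.3. Contrasts between compounds used all mice. A gene was called at a Benjamini-Hochberg adjusted p under 0.05 over all genes tested. Standard errors are the log2 fold change divided by the square root of F. CPM values use TMM-scaled totals. Genes at 0 in a whole group were given as bounds against a floor of 3 estimated counts per library. Alternatives were DESeq2 1.42.0, library totals, limma-trend on log2(CPM + 1), other filters, all 17 vehicle mice, summed copies, the mouse number as a block or its range as a covariate, and leaving out each mouse (in the contrasts, each mouse of groups of 2 to 5). Ligands given with full statistics were, in each comparison, up to 4 called ligands with the largest absolute log2 fold change among those without overlap with the route controls, and every ligand called in at least 5 of the 7 comparisons. Ccl21a and Ccl21b were also summed. Other ligands were named by role after their values were seen, Ccl9 with GAL and Cxcl10 with TAA with full statistics, and receptor and upstream genes were taken from fixed lists, without 3 genes that are not reported here. The members and lists were chosen with earlier results of these data known. Scripts were tested on simulated data.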

Additional observations from a re-analysis of the deposited data

Results flagged for a closer look

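Ligands called against the route vehicle were examined in their treated group for a mouse whose gap to the nearest other exceeded Dixon's limit. Ccl21a with ANIT and with MDA was at 0 in every treated mouse and so had no gap to examine. Of 93 pairs of ligand and group tested, 18 held such a mouse. Chance alone marks about 1 in 20 such groups, and ligands of the same mouse are not independent. APAP mouse 1 accounted for 11: Ccl12 (3.54 CPM), Ccl19 (36.4 CPM), Ccl2 (496 CPM), Ccl3 (70.4 CPM), Ccl4 (101 CPM), Ccl5 (186 CPM), Ccl7 (82.8 CPM), Cxcl1 (926 CPM), Cxcl10 (202 CPM), Cxcl13 (24.7 CPM) and Cxcl2 (915 CPM). TAA mouse 7 accounted for 6: Ccl2 (159 CPM), Ccl3 (17.0 CPM), Ccl4 (30.6 CPM), Ccl7 (33.8 CPM), Cxcl10 (109 CPM) and Cxcl2 (202 CPM). The remaining one was Xcl1 in TAA mouse 8, at 0.151 CPM where the other 4 were at 0. The marker sums that stood beside APAP mouse 1 and TAA mouse 7 are given with those results, and their part was not tested.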

How the results depend on the processing

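The 58 log2 fold changes chosen by the rule for full statistics were recomputed 1363 times. 1276 stayed on the same side of the threshold, 87 lost the call and 0 changed direction. Summed copies ended none of the 58 calls, but only Ccl21a was joined with another row. Nearly all of those outcomes were thus fixed in advance. Limma-trend ended no call, library totals ended 8, and leaving out 1 mouse ended 46. These counts do not cover the other ligands, some of which lost calls with limma-trend or changed sign. Depth limits the ligands near 0, for which bounds or levels were given. With 2 mice in CIP and in CIV, 1 control mouse decided several calls with GAL and CCl4.

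Counts of called ligands moved by over 1.5 times as follows, and where no value is named beside one the cause was not tested. A mean of at least 5 CPM, which tests fewer genes, gave 5 with ANIT, 11 with APAP and 9 with TAA. Fewer mice, within numbers 1 to 4, gave 4 with ANIT, 8 with APAP and 4 with MDA, and numbers above 4 gave 9 with APAP and 7 with MDA. DESeq2 gave 10 with APAP and 9 with CCl4. All 17 vehicle mice gave 14 with CCl4. In the contrasts with the other 6 compounds, all 17 vehicle mice as a common control gave 18 for APAP, 14 for MDA, 8 for TAA, 7 for CCl4, 10 for GAL and 28 for ConA, and library totals gave 4 for APAP. The shares of all genes called in these contrast fits are not given, so the counts are no result about the ligands. No contrast left out a mouse of APAP, MDA, CCl4, ConA or Ctrl. The contrast ranges below thus do not cover APAP mouse 1.

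Leaving out 1 mouse gave 7 to 10 called ligands with ANIT, 14 to 20 with APAP, 11 to 12 with MDA, 13 to 18 with TAA, 2 to 8 with CCl4, 7 to 11 with GAL, 19 to 24 with ConA and 0 in every case with CIP and with CIV. The count was 8 without CCl4 mouse 8, 2 with CCl4 and 7 with GAL without CIP mouse 8. The contrasts gave 3 to 12 for ANIT (3 without ANIT mouse 2, 7 without ANIT mouse 4), 4 to 10 for APAP (4 without CIP mouse 7, 4 without CIP mouse 8, 5 without CIV mouse 7), 3 to 10 for MDA (4 without CIP mouse 7, 3 without CIP mouse 8), 3 to 5 for TAA, 0 to 1 for CCl4 (0 without either CIP mouse), 2 to 4 for GAL (2 without GAL mouse 7) and 4 to 12 for ConA (5 without CIV mouse 7, 4 without CIV mouse 8).

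Mice of different groups share numbers, and the labels do not say that a number marks a litter, batch or day. Deviations of same-numbered mice from their group means correlated across genes at -0.006 to 0.093 for ANIT, -0.01 to 0.138 for APAP, -0.148 to 0.092 for MDA, 0.007 to 0.274 for TAA and 0.038 to 0.04 for GAL, so the numbers were not taken as pairs. With a replicate block, on the mice that share numbers, the counts were 4 with ANIT, 1 with APAP, 9 with MDA, 13 with TAA, 10 with GAL, 0 with CIP and 0 with CIV. In the contrasts the block gave 5 for ANIT, 3 for APAP, 4 for MDA, 4 for TAA, 0 for CCl4, 4 for GAL and 7 for ConA. The shares of all genes called in the block fits are not given, so the block counts are no result about the ligands. For CIV and Ctrl the 2 shared numbers correlated at -0.259 and -0.103. The block ended 9 of the 58 calls. No block could be fitted for CCl4 against CIP or ConA against CIV, which share only the number 8.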
